A study of Mus musculus with 2 samples.

Results

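The 9 genes described here, Bcl2, Bcl2l1, Mcl1, Bcl2a1b, Bcl2a1d, Bcl2l11, Bax, Bak1 and Bid, belong to the BCL-2 family and were taken by name, 9 of the 13528 genes in the filtered count table. They were followed by deposited cell type, cluster and genotype in CD45+ immune cells of the mouse liver, captured on the BD Rhapsody system, in which every transcript molecule carries a unique molecular identifier (UMI) and antibodies tagged with oligonucleotides report surface proteins. The transgene of TG mice is dnTGFβRII, a dominant negative TGF-β receptor under the mouse Cd4 promoter on the C57BL/6 strain, which models primary biliary cholangitis; WT mice are C57BL/6 controls without the transgene. TG cells came from a library that also held IFN-γ ARE-Del-/- mice, and WT cells from a library that also held P40-/-IL-2Ra-/- mice; only TG and WT cells carried a genotype name and were compared. The labels give an age of 10 weeks to every animal, whereas a younger age is written in the study's methods. With 1 library per genotype there are no replicates and no test was made, and a difference of genotype cannot be told apart from one of capture.

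Proteins of the BCL-2 family decide whether the outer membrane of the mitochondrion is opened and a cell enters apoptosis. BCL-2, BCL-XL (gene Bcl2l1), MCL-1 and A1 (the Bcl2a1 genes) hold the membrane closed, BAX and BAK (gene Bak1) form the pore, and the BH3-only proteins BIM (gene Bcl2l11) and BID carry death signals to them. In lymphocytes BIM is bound and held in check by BCL-2, signals through the IL-7 and IL-15 receptors maintain Bcl2, antigen receptor signals induce the Bcl2a1 genes and Bcl2l1, and neutrophils depend on MCL-1.

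The mouse genome carries several nearly identical Bcl2a1 copies on chromosome 9, and this bears on every value given for Bcl2a1b and Bcl2a1d. Read from the GENCODE transcripts of GRCm38, the transcripts of Bcl2a1b and Bcl2a1d differ at 7 of 817 aligned bases, and those of Bcl2a1b and Bcl2a1a, a further copy that is no member here, at 15. The first 90 coding bases, all in exon 1 of each gene, are shown because at least 1 of the 3 copies differs at 6 positions there, of which 2 separate Bcl2a1b from Bcl2a1d; capitals mark the bases at which any of the 3 copies differs. Bcl2a1b lies at chr9:89199360-89199449 on the plus strand, Bcl2a1d at chr9:88731630-88731719 on the minus strand and Bcl2a1a at chr9:88957051-88957140 on the plus strand.
Bcl2a1b: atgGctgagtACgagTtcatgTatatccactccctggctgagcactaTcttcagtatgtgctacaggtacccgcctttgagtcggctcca
Bcl2a1d: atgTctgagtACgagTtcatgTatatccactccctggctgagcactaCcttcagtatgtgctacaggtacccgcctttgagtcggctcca
Bcl2a1a: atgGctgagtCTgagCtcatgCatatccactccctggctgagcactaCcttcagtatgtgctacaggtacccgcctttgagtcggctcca
Over the whole coding sequence of 519 bases, Bcl2a1b and Bcl2a1d differ at 6 positions. Of all windows of 100 bases along the Bcl2a1b transcript, 31.1% occur without a change in Bcl2a1d, so reads from such windows cannot be assigned to a copy and the split of counts between these genes is uncertain.

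The remaining members lie alone in the genome, though several share exon bases with a neighbour. On GRCm38, Bcl2 spans chr1:106538178-106714274 on the minus strand, Mcl1 chr3:95658788-95663176 on the plus strand, Bcl2l1 chr2:152780668-152831728 on the minus strand and Bcl2l11 chr2:128126038-128162547 on the plus strand. Bax spans chr7:45461697-45466898, Bak1 chr17:27019810-27029009 and Bid chr6:120891930-120916853, all on the minus strand. Bak1 shares 177 and 437 of its 2407 exon bases with transcripts of Ggnbp1 on the opposite strand, Bid shares 628 of 3550 with Bcl2l13 on the opposite strand, and Bcl2 shares 558 of 9157 with an antisense transcript. Whether the counting used strand is not given in the sources used here, so reads from those stretches cannot be told apart. On the same strand, Bax shares 192 of its 1576 exon bases with Gm45808 and Bcl2a1b 401 of 817 with Gm29094, overlaps that no strand setting separates.

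The table held 4647 TG cells with 18498477 UMIs, a median of 3298 per cell, and 7282 WT cells with 22216379 UMIs, a median of 2653.5. Levels are UMIs summed over the cells of a type, scaled to 1e+06 UMIs of all genes (CPM), with exact Poisson 95% intervals, and differences as log2 ratios with exact conditional binomial 95% intervals. Both cover counting error alone and not the spread between animals. A pair of a gene and a cell type was listed with at least 30 UMIs over both sums and called past 1.5-fold. The 9 deposited cell types with at least 50 cells in each library were compared, under the names the deposited table gives them. Several names went against their markers. Cells labelled monocytes carried the neutrophil transcript Csf3r at 2862 CPM in TG and 2960 in WT with Ccr2, a monocyte receptor, at 21.7 and 40.2. C1qa, which marks resident macrophages, was listed at 0 in cells labelled macrophages of TG, for which the unfiltered library counts held 1 UMI, and stood at 247 CPM in WT. Of the cells so labelled, 81.7% in TG and 60.5% in WT were in cluster 15, which held Ccr2 at 552 and 652 CPM. A further 18.3% and 30.7% were in cluster 22, whose leading genes against all other cells included Xcr1, Tlr11 and Tlr3. The word macrophages is used below as the deposited name only. TG cells labelled NK carried the T cell transcript Cd3e at 1158 CPM against 97.8 in WT. Cd93 and Vpreb1, which mark immature B cells, had at most 2 UMIs each per genotype in the cells so labelled. TG cells labelled NKT carried Cd4 at 634 CPM against 162 in WT and Klrb1c, a receptor of NK and NKT cells, at 439 against 784. A total of 36 cell barcodes occurred in both genotypes.

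Bcl2 was highest in NKT cells in both genotypes. Its level there was 409 CPM (95% interval 380 to 440) in TG and 523 (506 to 541) in WT. CD8αα T cells followed at 300.5 CPM in TG and 481.8 in WT, and NK cells at 214 and 384. CD8αβ T cells stood at 195 and 221 CPM, CD4 T cells at 146 and 205, mature B cells at 111 and 157 and immature B cells at 90.03 and 148. The lowest levels were in cells labelled monocytes in TG (45.1 CPM, 29.7 to 65.7) and in macrophages in WT (62.2 CPM, 49.8 to 76.7). TG macrophages held 94.8 CPM, between both B cell classes. NKT, CD8αα T and NK cells thus sat at the top of the order, a span of 9.06-fold in TG and 8.41-fold in WT. Of the 8 steps between neighbours in that order, 5 in TG and 4 in WT had an interval that excluded 0. Other neighbours did not differ beyond counting error. Among these were NK and CD8αβ T cells in TG (0.13, -0.02 to 0.29) and NKT and CD8αα T cells in WT (0.12, -0.06 to 0.30). The order holds for whole cell types only. Within CD8αβ T cells, clusters 4, 7, 12, 13 and 18 ranged from 74.0 to 453 CPM in TG and from 104 to 372 in WT.

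Mcl1 ran the other way. Cells labelled monocytes, which carried neutrophil transcripts, held 3577 CPM in TG and 3421 in WT, and 99% of these cells in TG had at least 1 Mcl1 UMI. Immature B cells came next with 863 and 1146 CPM, then macrophages with 817 and 904 and mature B cells with 798 and 900. All T and NK classes lay between 376 and 603 CPM, with CD8αβ T cells lowest in both genotypes at 376 and 460. Cells of the separate class named neutrophils, 54 in TG and 17 in WT, held 995 and 1241 CPM.

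Bcl2l1, which encodes BCL-XL, was high in NKT, NK and CD8αα T cells. NKT cells held 62.9 CPM in TG and 68.0 in WT, NK cells 56.1 and 69.7, and CD8αα T cells 50.6 and 60.0. Levels were low in B cells, with 6.85 and 12.8 CPM in mature and 9.003 and 5.90 in immature B cells, and in macrophages, with 13.1 and 11.4. CD4 T cells held 45.0 CPM in TG and 25.2 in WT. Cells labelled monocytes held 63.5 CPM (45.0 to 87.2) in TG and 24.9 (13.2 to 42.5) in WT, intervals that did not overlap.

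Both Bcl2a1 members were high in NKT cells and in cells labelled macrophages. Bcl2a1b stood at 53.2 CPM in TG and 62.4 in WT NKT cells and at 65.3 and 34.3 in macrophages, and cells labelled monocytes held 21.7 and 40.2. Bcl2a1d stood at 30.02 and 61.6 CPM in NKT cells and at 62.1 and 61.4 in macrophages. In WT NKT cells the copies were counted almost equally, 412 UMIs against 407, whereas in TG NKT cells Bcl2a1b had 94 and Bcl2a1d 53. The ratio of Bcl2a1b to Bcl2a1d UMIs was 1.77 (1.25 to 2.53) in TG and 1.01 (0.88 to 1.16) in WT NKT cells, and over all cells 1.51 (1.30 to 1.76) and 1.01 (0.91 to 1.11). How reads shared by the copies were assigned is not given in the sources used here.

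Because the copies were high in the same cell types, their promoters are shown, from the RefSeq table for GRCm38.p6 and cut before the annotated start. Capitals mark the letters TGANTCA, with N for any base. This pattern is looser than the usual site of AP-1, a factor induced by antigen receptor signals. Both marked stretches read TGAATCA, and whether AP-1 binds these letters was not tested. The stretch of Bcl2a1b is chr9:89199023-89199208 on the plus strand and that of Bcl2a1d chr9:88731915-88732100 on the minus strand.
Bcl2a1b: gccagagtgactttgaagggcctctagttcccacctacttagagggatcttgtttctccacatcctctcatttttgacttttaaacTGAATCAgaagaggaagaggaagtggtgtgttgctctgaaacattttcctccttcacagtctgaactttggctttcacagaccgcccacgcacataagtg
Bcl2a1d: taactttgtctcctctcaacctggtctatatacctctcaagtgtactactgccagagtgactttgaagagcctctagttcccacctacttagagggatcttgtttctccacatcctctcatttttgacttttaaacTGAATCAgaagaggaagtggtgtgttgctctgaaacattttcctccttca
Aligned as uncut windows of 250 bases, the promoters of this pair are 99% identical over 200 aligned bases, gaps not counted. TGANTCA was found on either strand in 6.75% of 32851 promoters of 250 bases and, among the 9 members, in these 2 genes only. A form of the κB site bound by NF-κB, present in 17.6% of promoters, was found in Bak1, 78 bases before the RefSeq start, a window that lies inside the GENCODE span of the gene, and in no other member. TTCNNNGAA, a form of the site bound by STAT factors, and a form of the interferon response element were in 7.02% and 2.98% of promoters and in no member. These matches describe letters in a window and not bound sites.

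Among the BH3-only genes, Bcl2l11 was high in NKT and CD8αα T cells. TG cells held most in NKT cells, 217.5 CPM (196 to 240), against 143.5 (135 to 153) in WT. WT cells held most in CD8αα T cells, 193 CPM, and NK cells, 175, where TG cells had 112 and 96.4. B cells and macrophages were lowest, between 37.2 and 62.3 CPM. Within a library the ratio of Bcl2l11 to Bcl2 UMIs does not depend on scaling. In NKT cells it was 0.532 (0.469 to 0.603) in TG and 0.274 (0.255 to 0.295) in WT, whereas in NK cells it was 0.45 (0.38 to 0.53) and 0.455 (0.394 to 0.525).

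Bid, whose product is cut by caspase-8 to carry death receptor signals to mitochondria, was highest in cells labelled monocytes at 85.3 CPM in TG and 74.6 in WT. Immature B cells held 39.3 and 36.4 CPM, CD8αα T cells 38.5 and 45.5, and NKT cells 15.9 and 14.5. CD4 T cells of WT were lowest of all, with 19 UMIs or 9.76 CPM (5.88 to 15.2).

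Of the pore-forming genes, Bax lay between 107 and 177 CPM in 8 of the 9 cell types of both genotypes and at 30.1 and 32.5 in cells labelled monocytes. Bak1 was highest in macrophages, 173 CPM in TG and 129 in WT, and lowest in mature B cells, 52.7 and 38.1. The highest level of Bak1 was 3.29-fold the lowest in TG and 3.37-fold in WT, the narrowest span of the 9 members in each genotype.

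**Figure D1:**
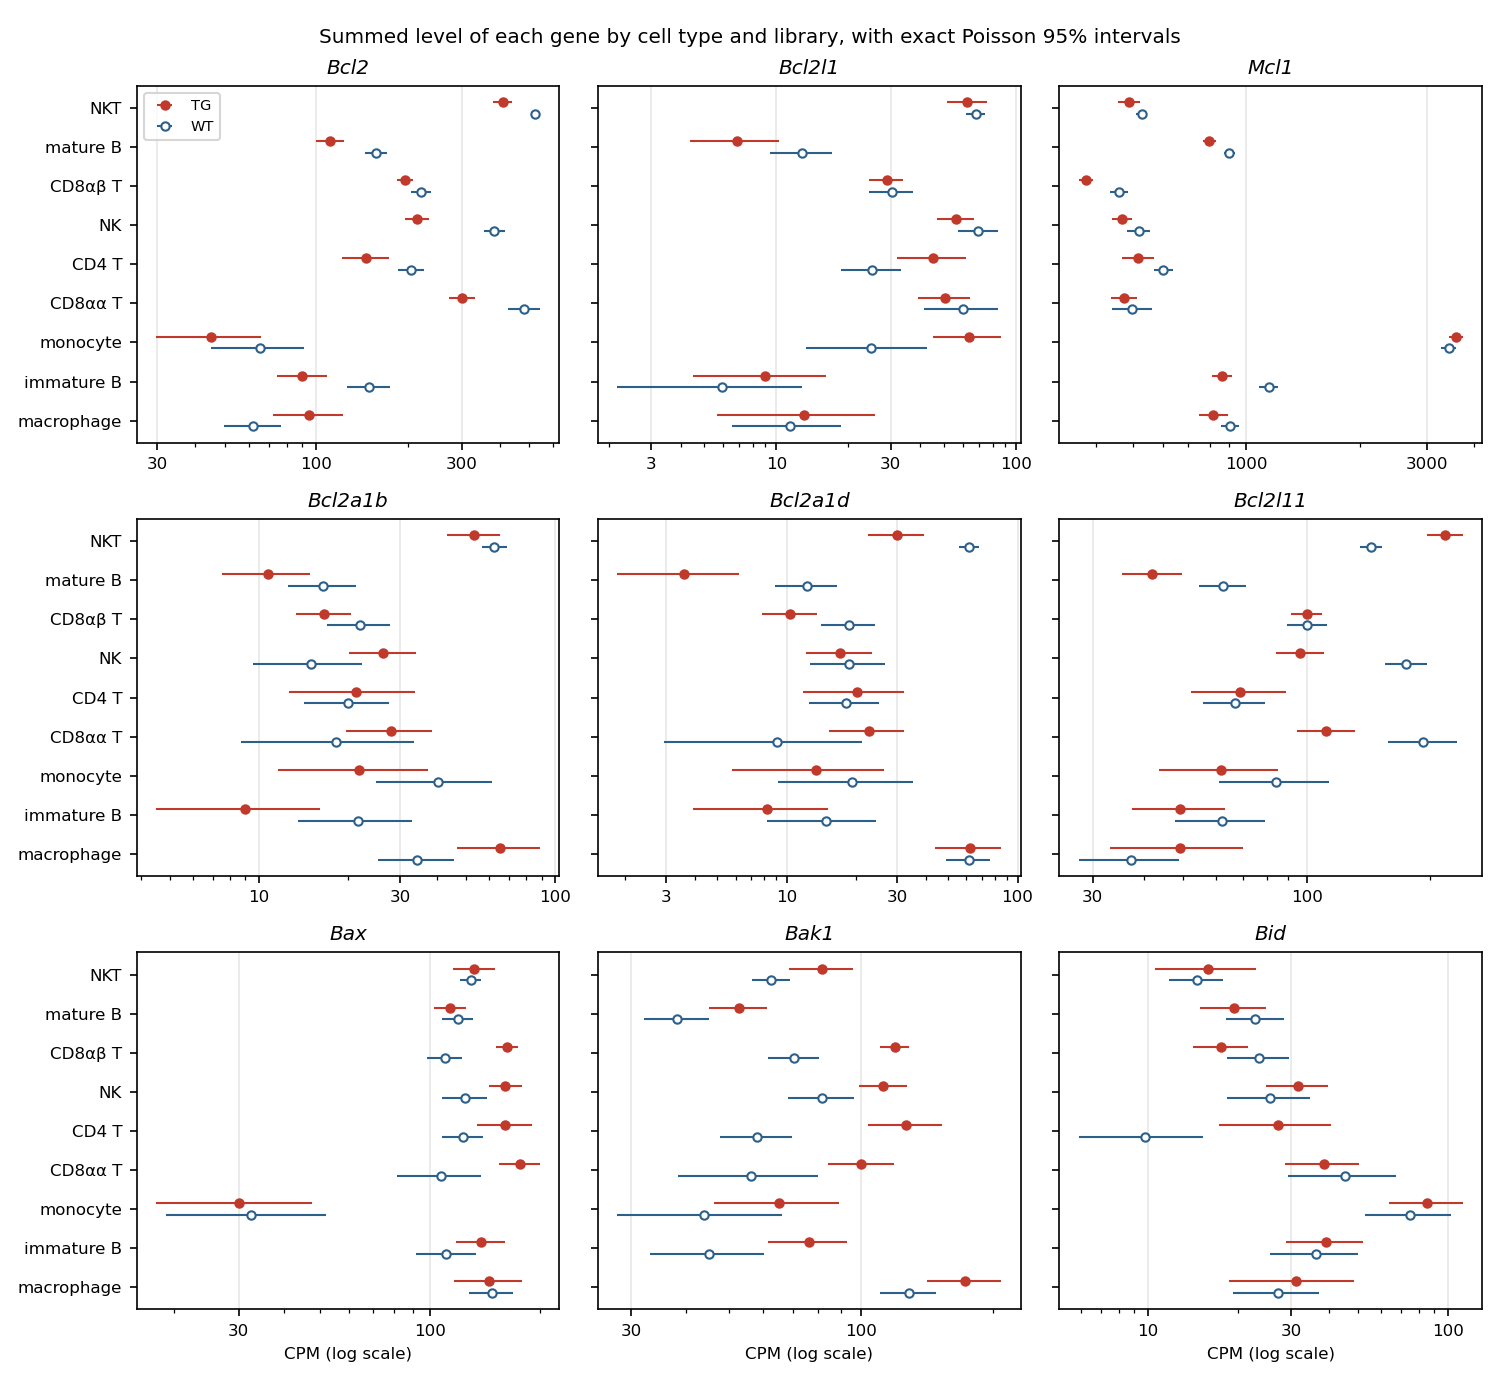
Levels of the 9 genes in 9 cell types, in CPM on a log axis, with filled red points for TG, open blue points for WT and bars for exact Poisson 95% intervals. Bcl2 ranged from 523 CPM in WT NKT cells to 45.1 in TG cells labelled monocytes, and Mcl1 peaked at 3577 CPM in TG cells labelled monocytes.

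Each cell type was set against all other cells of the same library. Of 81 pairs of a member and a cell type, 14 were past 1.5-fold higher in both libraries, where 7.64% of all gene and cell type pairs were, and 20 were past it lower, where 21.7% were. The other cells differed in make-up between libraries, with 446 NKT cells among 4647 TG cells and 2232 among 7282 WT cells. Bcl2 in the cells set against CD8αβ T cells was at 177 CPM in TG and 296 in WT. NKT cells held 5 of the higher pairs, against 6.88% of genes in that cell type. Their log2 ratios in TG and WT were 1.37 and 1.49 for Bcl2, 1.53 and 0.81 for Bcl2l11, 1.35 and 1.52 for Bcl2a1b, 1.06 and 1.501 for Bcl2a1d, and 1.07 and 1.43 for Bcl2l1. Only Bid was past the line lower there, at -0.75 and -0.84, where 15.8% of genes were. CD8αα T cells were higher in 3 members, against 7.78% of genes, namely Bcl2 (0.79 and 0.78), Bcl2l1 (0.68 and 0.68) and Bid (0.64 and 1.05). NK cells were higher in Bcl2l1 alone, at 0.91 and 0.97, against 6.38% of genes.

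Mature B cells were lower in 6 of the 9 members, where 21.9% of genes were, and higher in none, where 8.26% were. The largest deficits were in Bcl2l1, -2.50 and -1.74, and Bcl2a1d, -2.38 and -1.62; Bcl2, Bcl2a1b, Bcl2l11 and Bak1 made up the rest. Immature B cells were lower in 5, against 21.0%, and higher in Bid, 0.67 and 0.73, against 7.06%. Cells labelled monocytes were higher in Mcl1 (2.67 and 2.41) and Bid (1.85 and 1.81), against 11.6%, and lower in Bax (-2.27 and -1.92) and Bcl2 (-2.05 and -2.16), against 56.0%. Macrophages were higher in Bak1 (0.88 and 1.10) and Bcl2a1d (2.12 and 0.95), against 11.7%, and lower in 3 members, against 20.3%. CD8αβ T cells were lower in Mcl1, Bcl2a1b and Bcl2a1d, against 15.1%, and higher in none, against 5.77%. CD4 T cells had no member past the line in both libraries, with 3.3% of genes higher and 15.3% lower.

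TG was then compared with WT within each cell type. Of 77 listed pairs, 14 were past 1.5-fold higher in TG, where 10.2% of all gene and cell type pairs were, and 12 past it lower, where 8.63% were. The median ratio of all genes per cell type lay between -0.07 and 0.07. The median log2 ratio over the listed pairs of members was -0.07. Bak1 was higher in TG in all 9 cell types and Bcl2 lower in 8, while 5.96% of the 3357 genes listed in all 9 were higher in all of them and 14.5% were lower in at least 8.

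Bak1 stood at 126.7 CPM in TG and 58.0 in WT CD4 T cells, a log2 ratio of 1.13 (0.73 to 1.52). The other cell types past 1.5-fold were CD8αα T cells (100.4 and 56.4 CPM; 0.83, 0.26 to 1.45), CD8αβ T cells (119.6 and 70.5 CPM; 0.76, 0.54 to 0.99) and immature B cells (76.1 and 45.2 CPM; 0.75, 0.23 to 1.29). In CD8αβ T cells the ratio was 0.56, inside the line, with clusters weighted as in WT. Ratios in the remaining 5 were between 0.38 in NKT cells and 0.57 in cells labelled monocytes, and the last was the only one of the 9 whose interval included 0. Bax, its fellow pore former, was past 1.5-fold in CD8αα T cells alone, 177 CPM in TG against 107 in WT (0.72, 0.30 to 1.16). That call stayed past the line in 7 of the 8 alternative settings run for it. In CD8αβ T cells Bax stood at 163 and 110 CPM (0.57, 0.38 to 0.75). NK cells (0.37) and CD4 T cells (0.38, but -0.10 with cells thinned to 1000 UMIs) also had Bax intervals above 0, whereas in NKT cells (0.03) and mature B cells (-0.07) the intervals included 0.

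Bcl2 was past 1.5-fold lower in NK cells (-0.84, -1.02 to -0.67), immature B cells (-0.72, -1.09 to -0.36) and CD8αα T cells (-0.68, -0.91 to -0.45); in NK cells the call ended, at -0.52, with the clusters of the class weighted as in WT. Its ratio was -0.50 in mature B cells, -0.49 in CD4 T cells, -0.35 in NKT cells and -0.18 (-0.32 to -0.04) in CD8αβ T cells. In CD4 T cells that weighting turned the direction, to 0.11. Macrophages were the exception at 0.61 (0.10 to 1.10). Those labelled macrophages in WT included 23 cells of cluster 27, which held 318 of the 346 C1qa UMIs of the WT class and had no TG cell. Within cluster 15, present in both genotypes, the Bcl2 ratio was 0.56 (-0.02 to 1.15). C1qa was at 0 in TG and 41.2 CPM in WT cells of cluster 15. Mcl1 was lower in TG in 8 of 9 cell types, by at most -0.41 (-0.53 to -0.29) in immature B cells, and past 1.5-fold in none.

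The BIM gene Bcl2l11 differed in direction between cell types. NKT cells, whose Cd4 and Klrb1c levels also differed between genotypes, were higher in TG, 0.60 (0.42 to 0.77), a value that lay at the line and between 0.52 and 0.62 under the other settings. NK cells (-0.86, -1.12 to -0.60) and CD8αα T cells (-0.79, -1.16 to -0.41) were lower, the former at -0.51 and no longer past the line with clusters weighted as in WT. Red cell transcripts summed to 1523 CPM in WT and 1.31 in TG cells labelled NK, and their part in the NK ratios was not tested. Mature B cells stood at -0.57 (-0.89 to -0.26), and CD8αβ T cells held 99.95 CPM in TG and 100.2 in WT. Bid was past 1.5-fold in CD4 T cells alone, at 27.2 and 9.76 CPM (1.48, 0.54 to 2.44), from 23 and 19 UMIs.

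Bcl2l1 was higher in TG in cells labelled monocytes (1.35, 0.41 to 2.39, from 38 and 13 UMIs) and CD4 T cells (0.84, 0.19 to 1.48) and lower in mature B cells (-0.90, -1.69 to -0.15). Within mature B cell cluster 1 the Bcl2l1 ratio was -0.30 (-1.30 to 0.69). Bcl2a1d was lower in TG in mature B cells, 3.57 against 12.2 CPM (-1.78, -2.83 to -0.83), NKT cells (-1.04, -1.48 to -0.62) and CD8αβ T cells (-0.84, -1.40 to -0.28). In mature B cells the summed level of the T cell markers Cd3e, Cd3d and Cd3g was 172 CPM in TG and 358 in WT, and without cells that held both B and T lineage genes the ratio of Bcl2l1 was -0.49 and that of Bcl2a1d -1.32. Bcl2a1b was higher in TG in macrophages (0.93, 0.29 to 1.57) and NK cells (0.81, 0.11 to 1.56) and lower in immature B cells (-1.26, -2.46 to -0.16). In mature B cells Bcl2a1b was at -0.62 (-1.26 to 0.01), past the line in 4 of the 8 alternative settings run for it.

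**Figure D2:**
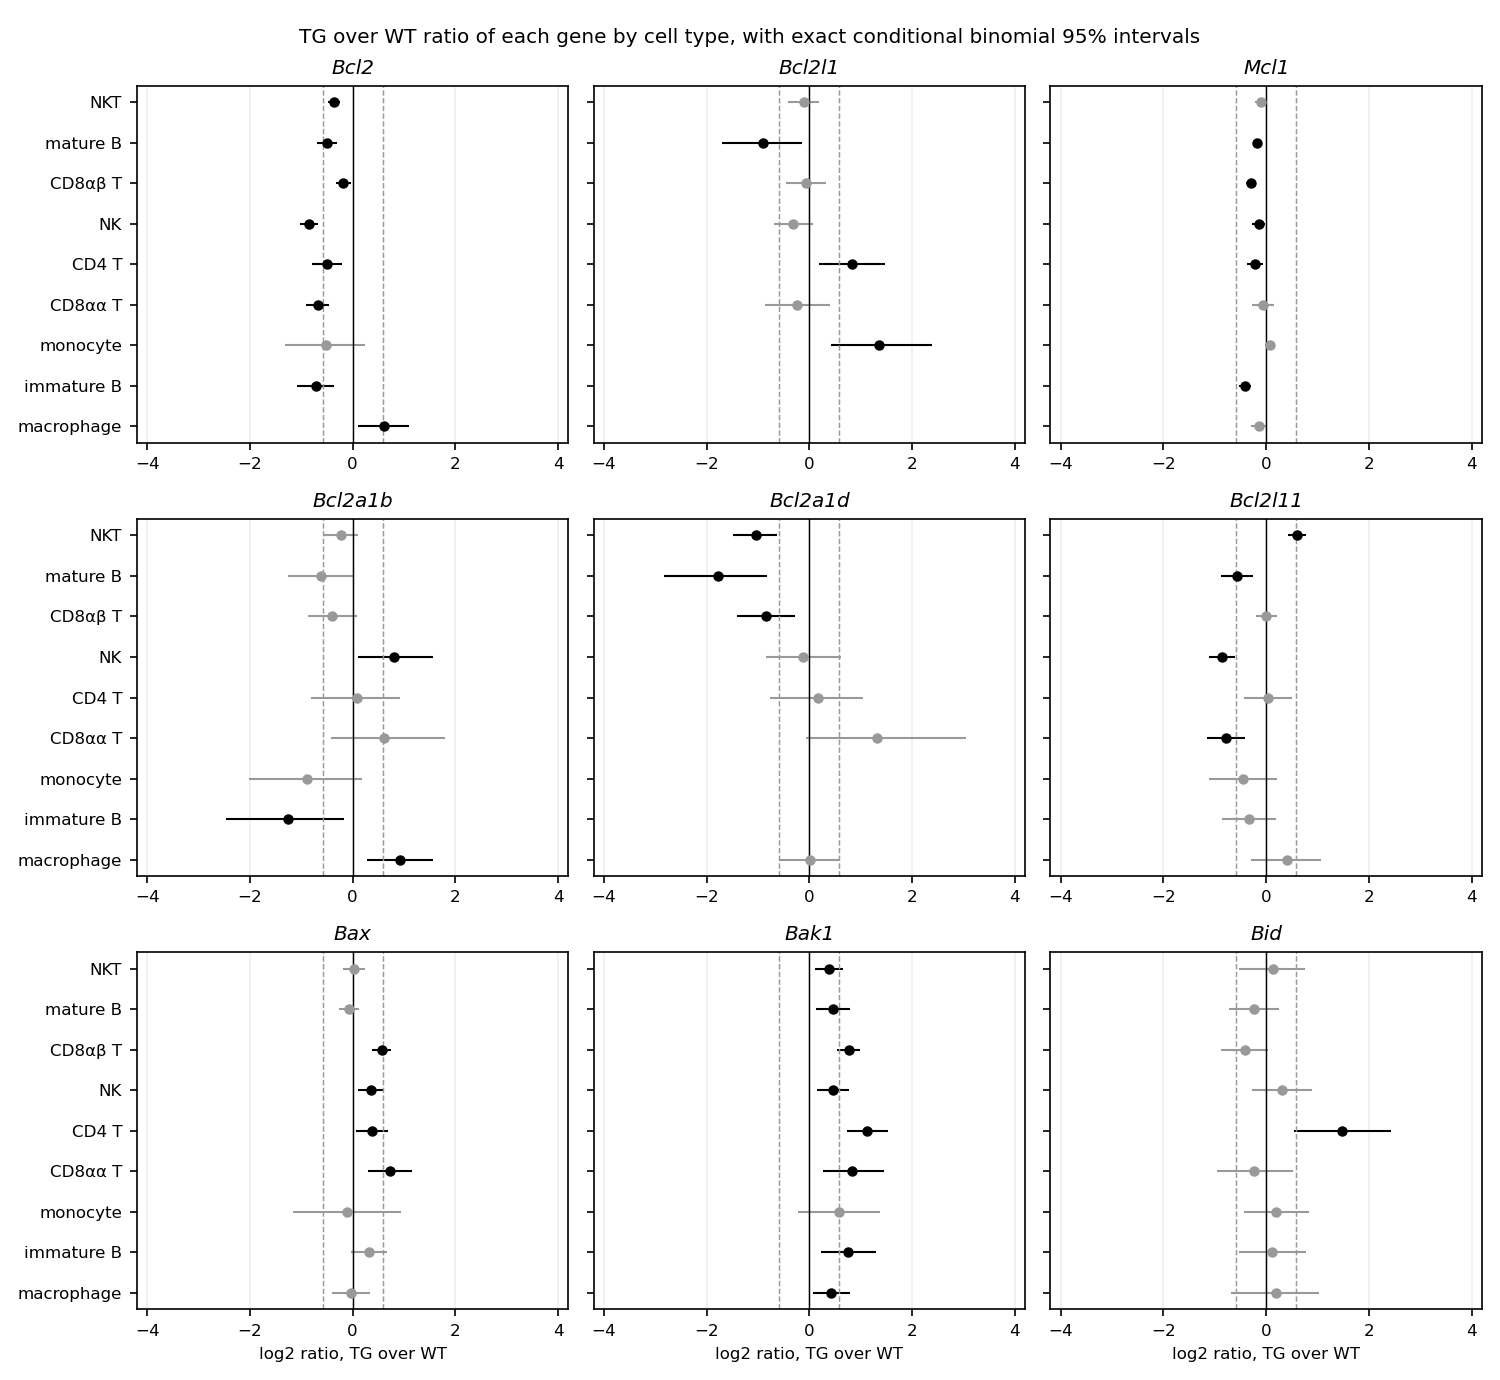
Log2 ratio of TG over WT for the 9 genes in each cell type, with exact conditional binomial 95% intervals; black marks an interval that excludes 0, dashed lines mark 1.5-fold, and pairs under 30 UMIs are not drawn. Bak1 lay above 0 in all 9 cell types, from 0.38 to 1.13, and Bcl2 below 0 in 8.

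Of the 26 calls, 11 stayed past the line under every alternative run for them. These were Bcl2a1d in NKT, mature B and CD8αα T cells, Bcl2a1b in NK cells, immature B cells and cells labelled monocytes, Bcl2 in CD8αα T and immature B cells, Bcl2l11 in CD8αα T cells, Bak1 in CD4 T cells and Bcl2l1 in cells labelled monocytes. CD8αα T cells, immature B cells and cells labelled monocytes are each a single cluster, so weighting clusters as in WT could not be run on their calls. No setting left out cells labelled NK on their Cd3e, or cells with red cell transcripts. None joined the Bcl2a1 copies, so the assignment of shared reads was not varied for the Bcl2a1b and Bcl2a1d calls. The intervals of Bcl2a1d in CD8αα T cells (-0.06 to 3.04) and of Bcl2a1b in cells labelled monocytes (-2.01 to 0.18) included 0. Thinned to 1000 UMIs per cell, 19 of 26 stayed past it. Among the others, Bak1 fell to 0.56 in CD8αα T cells and 0.36 in immature B cells, Bcl2a1d in CD8αβ T cells to -0.32, Bcl2l1 in CD4 T cells to 0.18, and Bcl2l1 in mature B cells to -0.0012. Bcl2a1d in CD8αβ T cells was also inside the line without cluster 7, at -0.49.

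With clusters weighted as in WT, which 6 of the cell types allowed, 3 of the 8 higher and 4 of the 7 lower calls in those cell types stayed past the line. Besides those already given, Bid (0.55) and Bcl2l1 (0.57) in CD4 T cells, Bcl2l1 in mature B cells (-0.27), and Bcl2 (0.50) and Bcl2a1b (0.56) in macrophages fell inside it. Bak1 was higher in TG in all 6 under this weighting, and Bcl2 lower in 3.

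Counts of members differed between the cell types. CD8αα T cells had 4 members past the line higher, where 12.1% of genes were, and 2 lower, where 7.91% were; of the 4, Bcl2a1b (0.62) and Bcl2a1d (1.32) had intervals that included 0. WT cells of that name carried Trdc, a γδ T cell receptor gene, at 855 CPM against 95.1 in TG, and red cell transcripts summed to 4364 CPM in WT and 0.755 in TG. The part of either in these ratios was not tested, though without Trdc-positive cells the ratio was 0.75 for Bak1, 0.88 for Bax, -0.83 for Bcl2 and -0.66 for Bcl2l11, while Bcl2a1b, at 0.25, was no longer past the line. CD4 T cells had 3 higher, against 14.8%, and none lower, against 8.86%. NK cells had 1 higher, against 8.64%, and 2 lower, against 10.4%. Macrophages had 2 higher, against 13.8%, and none lower, against 10.1%. Mature B cells had 3 lower, against 7.12%, and none higher, against 5.18%. Immature B cells had 2 lower, against 9.08%, and Bak1 higher, against 8.54%. NKT cells had Bcl2l11 higher, against 8.94%, and Bcl2a1d lower, against 6.59%. CD8αβ T cells likewise had Bak1 higher, against 10.5%, and Bcl2a1d lower, against 7.31%. Cells labelled monocytes had Bcl2l1 higher, against 11.4%, and Bcl2a1b lower (-0.89, -2.01 to 0.18), against 13.9%.

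Clusters of the deposited table were used to see which differences held within finer groups of cells, with at least 20 cells of each genotype. Bak1 was higher in TG in 20 of 22 clusters, with 10 intervals above 0 and none below. Of the 1712 genes listed in all 22 clusters, 5.43% were higher in at least 20. In CD4 T cell cluster 9 Bak1 stood at 162 CPM in TG and 70.0 in WT (1.21, 0.69 to 1.75), and in mature B cell cluster 1 at 52.9 and 32.8 (0.69, 0.31 to 1.07). Bax was higher in 18 of 22, as 11.6% of those genes were in at least 18, and Mcl1 lower in 18, as 14.3% were.

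Bcl2 was lower in TG in 15 of the 20 clusters in which it was listed, and of genes listed in 20 clusters 16.1% were lower in at least 15. Its intervals lay below 0 in 11 clusters and above 0 in 3. CD8αβ T cell cluster 4, with 145 TG and 363 WT cells, held 370 CPM in TG and 224 in WT (0.72, 0.46 to 0.98). Genotypes also differed there in Ly6c2 (1677 against 418 CPM) and Eomes (134 against 43.9), genes of memory T cells, and their part in the Bcl2 and Bcl2l11 ratios of cluster 4 was not tested. Cluster 13 held 453 and 372 CPM (0.28, 0.03 to 0.54). In the same cell type, cluster 7 held 74.0 and 104 CPM (-0.50, -0.86 to -0.13) and cluster 18 117 and 236 (-1.01, -1.78 to -0.20). Cluster 4 made up 14.2% of TG and 44.3% of WT CD8αβ T cells, and cluster 7 31.3% and 16.1%. The small ratio of the whole class, -0.18, thus joined clusters of opposite direction in unequal shares, and with the clusters weighted as in WT it was 0.34.

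In NK cells the clusters split by T cell transcripts. Cd3e stood at 1401 CPM in TG cells of cluster 11 and 1608 of cluster 3, against 130 and 122 in WT, while cluster 8 held 133 and 67.5. Bcl2 was lower in TG by -1.75 (-2.44 to -0.99) in cluster 11, which had 343 TG and 22 WT cells, and by -0.66 (-0.91 to -0.42) in cluster 3. In cluster 8 the ratio was -0.25 with an interval that included 0 (-0.56 to 0.05). Bcl2l11 was lower in cluster 8 as well, -0.68 (-1.13 to -0.25), with 117 CPM in TG and 187 in WT, and was at -0.33 (-0.71 to 0.05) in cluster 3.

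Bcl2l11 was higher in TG in cluster 4, 158 against 74.4 CPM (1.09, 0.66 to 1.52), in cluster 13 (0.53, 0.11 to 0.98) and in the main NKT cluster 0, 201 against 128 CPM (0.65, 0.45 to 0.84), where Cd4 was at 641 against 161 CPM, Klrb1c at 469 against 826 and Zbtb16, a factor of NKT cells, at 42.3 against 104. The part of these differences in the ratios was not tested. It was lower in cluster 7, 50.9 against 92.7 CPM (-0.87, -1.27 to -0.45). Bcl2 and Bcl2l11 were therefore both higher in TG in clusters 4 and 13 and both lower in cluster 7, while in cluster 0 Bcl2 was lower and Bcl2l11 higher. Among clusters of at least 20 cells of each genotype, the highest Bcl2l11 was in NKT cluster 19, 501 CPM in TG and 364 in WT, whose leading genes against all other cells included Nr4a3, Tnfrsf9 and Il2ra, all known to be induced by antigen receptor signals.

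**Figure D3:**
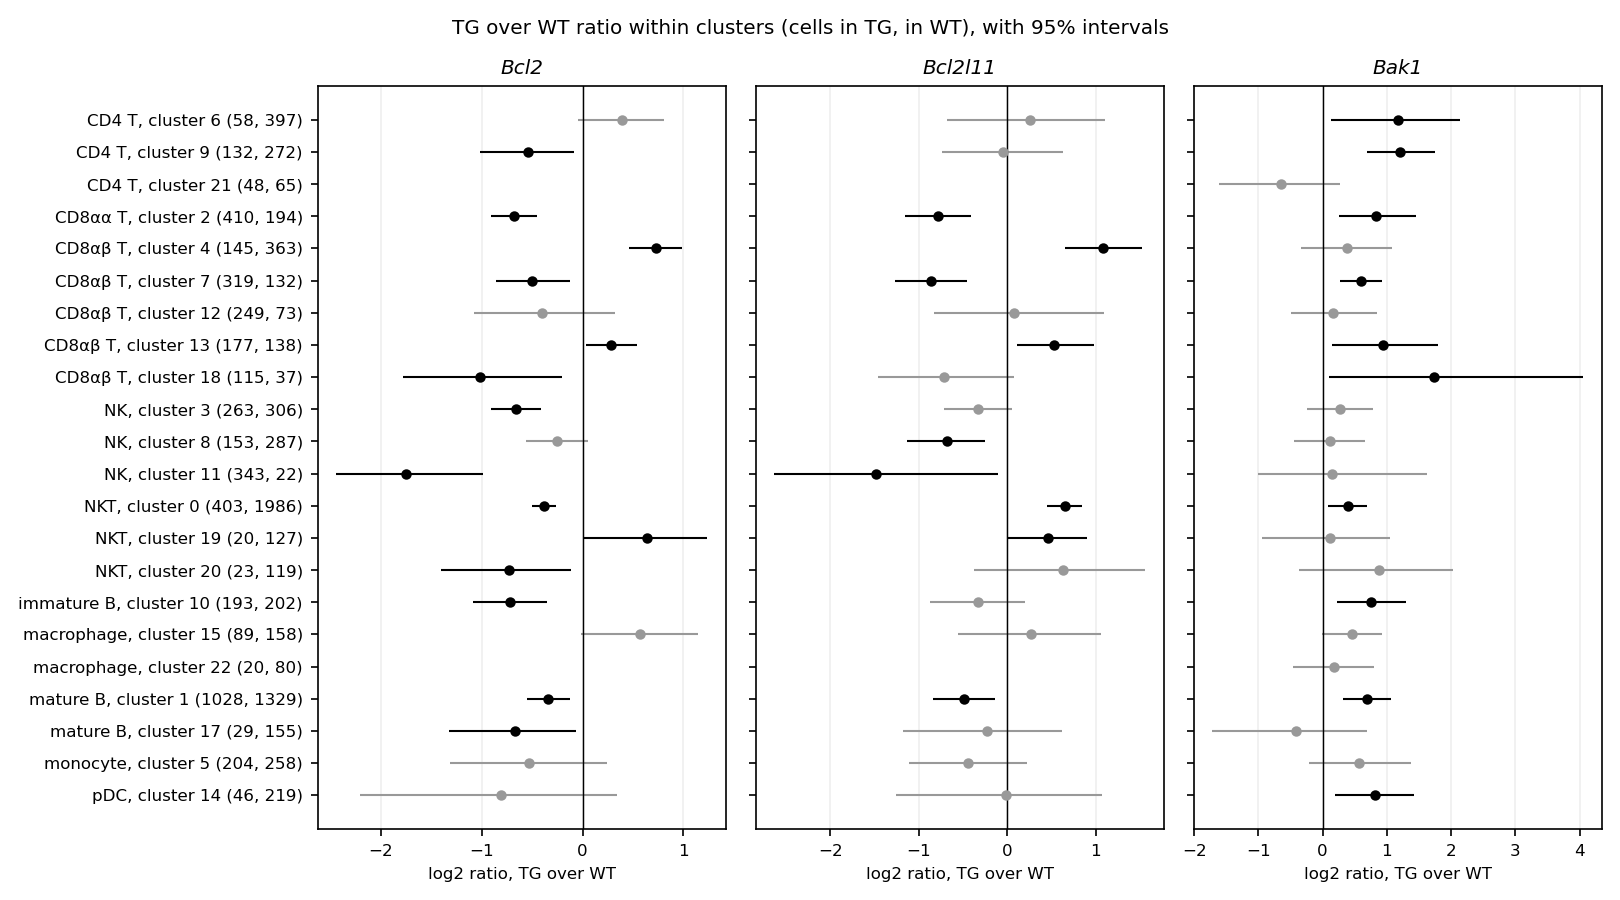
Log2 ratio of TG over WT for Bcl2, Bcl2l11 and Bak1 in 22 clusters with at least 20 cells of each genotype, with 95% intervals. Bak1 lay above 0 in 20 clusters, whereas Bcl2 and Bcl2l11 took both directions, at 0.72 and 1.09 in cluster 4 and at -0.50 and -0.87 in cluster 7.

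CD8 T cell clusters were next set against cluster 4 within each library. Among the CD8αβ clusters, cluster 4 had the highest Lef1, a factor of naive T cells, at 400 CPM in TG and 588 in WT, and Ccr7, a lymph node homing receptor, at 204 and 258. Cluster 7 held Mki67, a marker of dividing cells, at 1127 and 1035 CPM, and cluster 2, the CD8αα T cells, Gzmb at 5017 and 4902; these descriptors were chosen after their values were seen. Of 30 listed pairs, 7 were past 1.5-fold higher than cluster 4 in both libraries, where 15.0% of all gene and cluster pairs were, and 2 were past it lower, where 6.66% were.

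Dividing cluster 7 cells had more Bak1 and less Bcl2 than cluster 4. They also held the NK cell gene Ncr1 at 169 CPM in TG and 62.9 in WT against 2.77 and 1.91 in cluster 4, Cd4 at 249 and 165 against 38.8 and 14.3, and Cd8b1 at 413 and 443 against 1112 and 1242, and the part of other cell types in this contrast was not tested. Bak1 stood at 161 CPM in TG and 107 in WT against 47.1 and 36.2 in cluster 4, log2 ratios of 1.77 and 1.56. Bcl2 stood at 74.0 and 104 against 370 and 224, ratios of -2.32 and -1.10. Bcl2a1b (1.16 and 2.38) and Bcl2l1 (0.60 and 1.65) were past the line too, though their TG intervals included 0 (-0.34 to 3.13 and -0.31 to 1.63), against 23.4% of genes higher and 11.0% lower in this contrast. Cluster 12, whose leading genes included Cx3cr1 and S1pr5, was alike in both, with Bak1 at 1.43 and 1.65 and Bcl2 at -2.04 and -0.92, against 12.9% and 6.84%. Its cells also held Cd4 at 291 CPM in TG and 219 in WT, and Trdc at 250 and 100 against 19.4 and 64.8 in cluster 4. Cd8b1 was at 942 and 1443 CPM there, and the part of other cell types was not tested.

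CD8αα T cells of cluster 2 differed from cluster 4 in other members. Bcl2l1 was higher by 1.61 in TG and 1.98 in WT, Bid by 1.63 and 1.77 and Bak1 by 1.09 and 0.64 (WT interval -0.10 to 1.36), against 19.7% of genes, and no member was lower, against 6.73%. Bcl2 went in opposite directions, -0.30 in TG and 1.10 in WT, since cluster 4 of TG held more and cluster 2 of TG held less than their WT counterparts. Clusters 13 and 18 had no member past the line in both libraries, against 2.43% and 13.6% of genes higher and 1.28% and 6.42% lower. Bcl2a1d had 0 UMIs in cluster 4 of either genotype, which allows up to 4.16 CPM in TG and 2.86 in WT at 3 counts. It stood at 11.2 CPM in TG and 29.8 in WT in cluster 7, from 27 and 28 UMIs, and at 22.6 and 9.09 CPM in cluster 2, from 30 and 5 UMIs.

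**Figure D4:**
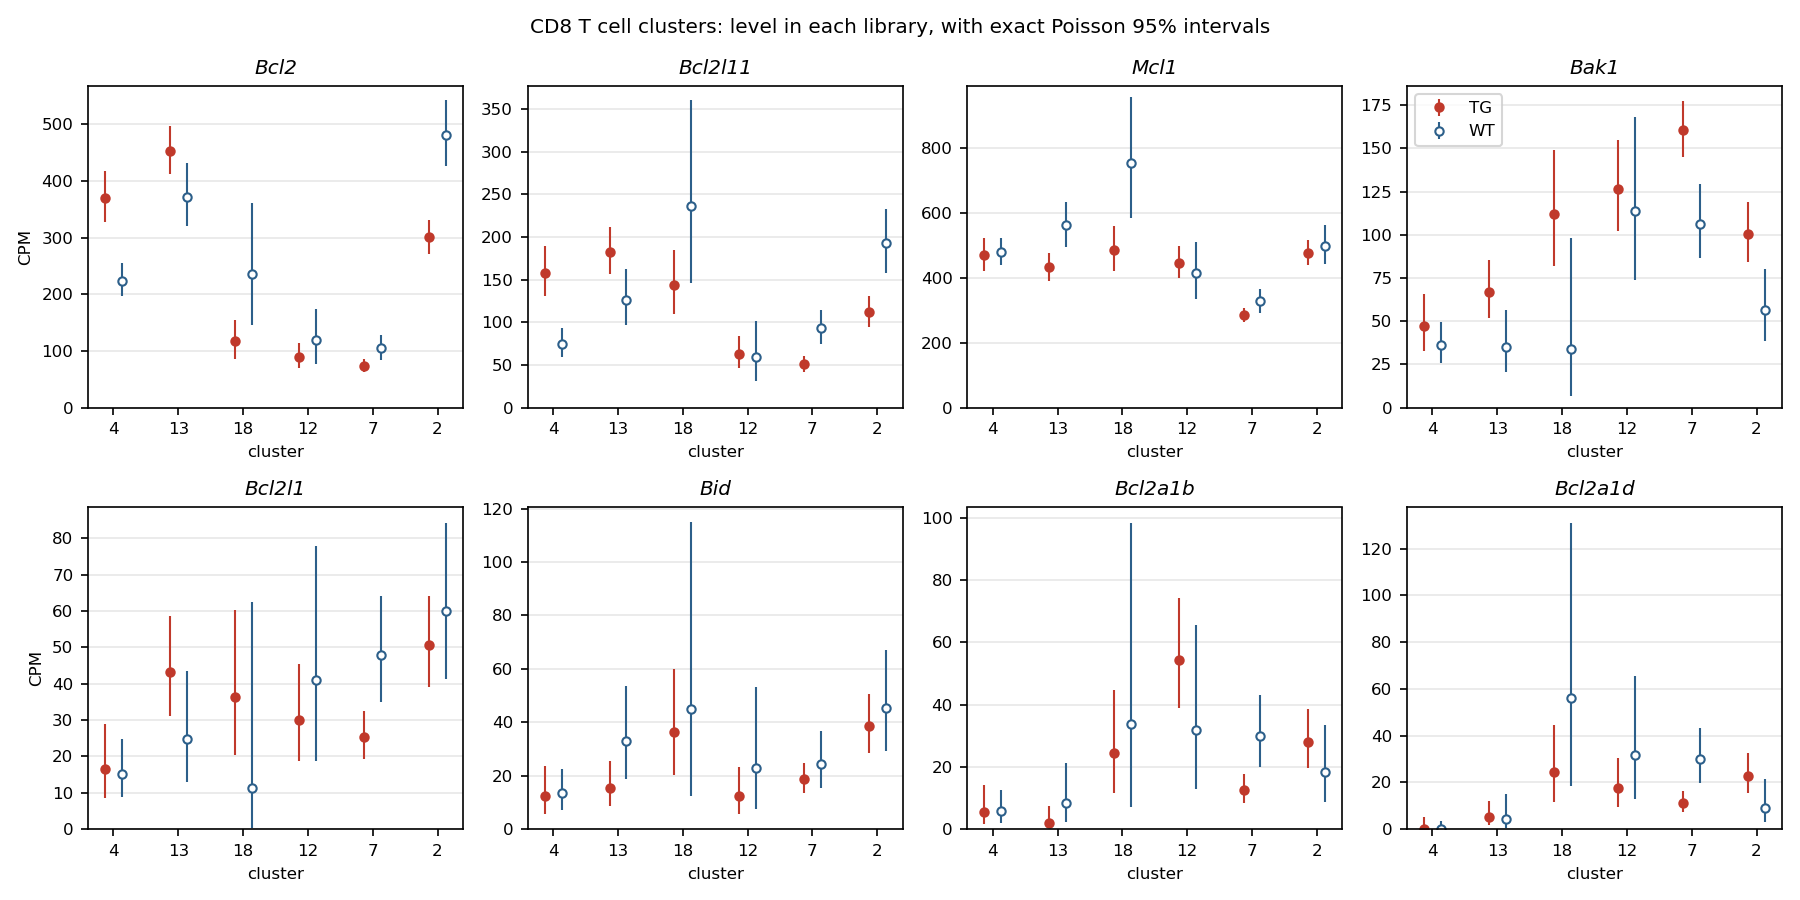
Levels of 8 members in CD8 T cell clusters 4, 13, 18, 12, 7 and 2, in CPM with exact Poisson 95% intervals, filled red for TG and open blue for WT. Bak1 was 161 and 107 CPM in cluster 7 against 47.1 and 36.2 in cluster 4, and Bcl2 was 74.0 and 104 against 370 and 224.

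Antibody counts gave a measure apart from the transcripts. CD44, a surface protein that increases on antigen-experienced T cells, was used to split CD8αβ T, CD4 T, NKT and NK cells of each genotype, each at its own median. Past 1.5-fold higher above the median were 4 of 8 listed members in WT CD4 T cells, where 19.7% of genes were, and 1 was lower, where 8.42% were. The 367 WT CD4 T cells above the median had more Bcl2a1d, 30.8 against 3.30 CPM (3.22, 1.55 to 5.57), Bcl2a1b, 32.7 against 5.50 (2.57, 1.21 to 4.28), Bcl2l1, 40.5 against 7.71 (2.39, 1.22 to 3.79) and Bak1, 79.9 against 33.0 (1.28, 0.66 to 1.93). They had less Bcl2, 156 against 261 CPM (-0.74, -1.04 to -0.45), and less Mcl1 (-0.40, -0.57 to -0.24). In WT CD8αβ T cells 4 of 9 members were higher above the median, where 19.5% of genes were, Bcl2a1d by 2.25, Bcl2a1b by 1.61, Bcl2l1 by 1.57 and Bak1 by 0.86, all with intervals above 0, and a Bcl2 ratio of -0.09 (-0.32 to 0.13). In TG CD8αβ T cells Bcl2l1 (0.63, 0.13 to 1.13) and Bid (0.82, 0.17 to 1.499) were higher above the median, 2 of 9 where 5.58% of genes were. Bak1 there had a ratio of 0.14 (-0.09 to 0.38). In TG CD4 T cells, 238 against 734 in WT, only 6 members were listed. None of these was past the line, where 9.88% of genes were higher and 8.38% lower. With the unlisted members counted in, all 9 intervals there included 0. The median was taken in each genotype apart, so the splits in TG and WT need not lie at the same CD44 level, and the difference between them was not tested. CD8αβ T cells above the median were also deeper, with a median of 3838 UMIs per cell against 2731 in WT and 5286 against 4074 in TG. NKT cells had no member past the line in either genotype, where between 2.02% and 5.74% of genes were in either direction. TG NK cells had none, where 8.68% of genes were higher and 5.77% lower. In WT NK cells 1 of 8 listed members was higher, where 11.0% of genes were, and 1 lower, where 7.16% were.

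Split by CD122, the IL-2 and IL-15 receptor β chain, Bcl2 differed in both directions between classes. In TG CD8αβ T cells 1 member was past 1.5-fold higher above the median CD122 signal, where 6.19% of genes were, and 2 lower, where 13.2% were. The 510 cells above it held 259 CPM of Bcl2 against 123 below it (1.07, 0.88 to 1.27), with Bcl2l11 at 0.45 (0.19 to 0.71), Bak1 at -0.29 (-0.52 to -0.06) and Bcl2a1b at -1.37 (-2.08 to -0.69). Cells above it were also deeper, with a median of 5326 UMIs against 3883. In WT CD8αβ T cells the Bcl2 ratio was 0.02 (-0.20 to 0.25) and that of Bcl2l11 -0.38 (-0.71 to -0.05). WT CD4 T cells held less Bcl2 above the median, 177 against 236 CPM (-0.42, -0.71 to -0.13), TG CD4 T cells were at 0.47 (-0.07 to 1.04), and NK cells had ratios of -0.13 in TG and 0.10 in WT with intervals that included 0. NKT cells above the median had more Bcl2 in both genotypes, 0.40 (0.18 to 0.62) in TG and 0.26 (0.17 to 0.36) in WT. Bcl2l11 in NKT cells was lower above the median in WT, -0.53 (-0.72 to -0.34), and at -0.08 (-0.38 to 0.21) in TG.

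Across 21 profiles of a cell type and genotype with at least 50 cells, a gene's log2(CPM + 5) was compared with that of 5928 genes of at least 1000 UMIs by Pearson correlation, as a description of points that share libraries and, in part, lineages. Bcl2 and Bcl2l11 had r = 0.90, and Bcl2a1b and Bcl2a1d, whose counts can share reads, r = 0.88, the highest values among the members. Mcl1 was opposed to Bax (r = -0.79) and to Bcl2 (r = -0.57) and went with Bid (r = 0.68), relations in which the cells labelled monocytes had the highest Mcl1. Genes most like Bcl2 were Gimap4 (r = 0.942), Zfpm1 (0.930) and Gimap3 (0.927). For Bcl2l11 they were Pik3r1 (0.900), Abcb9 (0.897) and Bcl2 itself. Bcl2l1 was nearest to Nbeal2 (0.926), Arhgap9 and Ppp1r12a, and Mcl1 to Ppp1r2 (0.926), Gpcpd1 and Osbpl9. Bax was nearest to Ndufb5 (0.979), Syncrip and Eif4g1, Bak1 to Smdt1 (0.861), Ap2s1 and Gpaa1, and Bid to Trim30d (0.798), Snap23 and Sh3glb1. Bcl2a1b was followed after Bcl2a1d by Stk10 (0.715) and Mob1a, and Bcl2a1d after Bcl2a1b by Ckb (0.819) and Spg21.

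**Figure D5:**
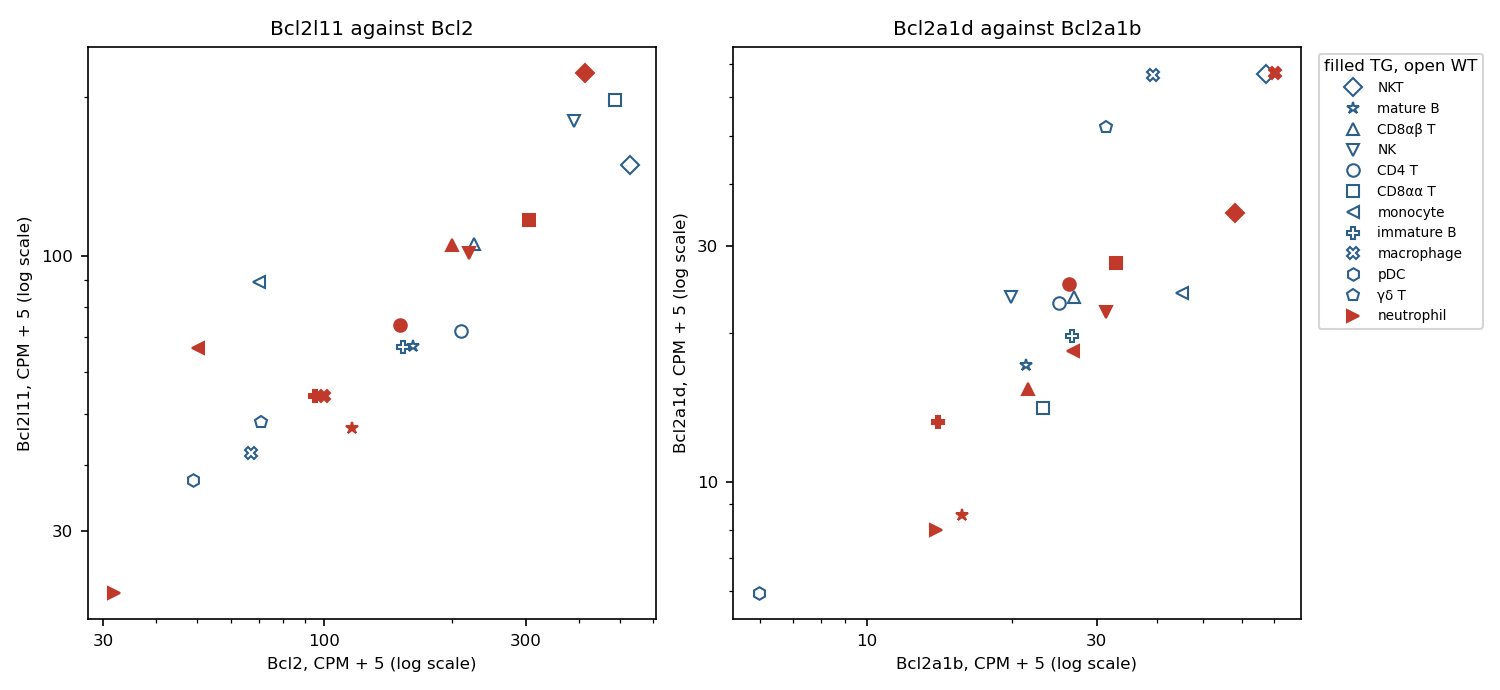
Bcl2l11 against Bcl2 and Bcl2a1d against Bcl2a1b over 21 profiles of a cell type and genotype, in CPM + 5 on log axes. Both pairs lay along a rising line, with r = 0.90 and r = 0.88, and TG NKT cells held 217.5 CPM of Bcl2l11 beside 409 of Bcl2.

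The members were set beside the rest of the pathway. Of the other BCL-2 family genes, 46 pairs of a gene and a cell type were listed, of which 8 were past 1.5-fold higher and 7 lower in TG, beside 10.2% and 8.63% of all pairs, with a median log2 ratio of -0.01. Pmaip1, which encodes the BH3-only protein NOXA, an antagonist of MCL-1, stood at 50.4 CPM in TG and 9.96 in WT cells labelled NK (2.34, 1.58 to 3.19). Over 9 cell types it was higher in 7 and lower in 2, from -0.90 to 2.65, with 4 intervals above 0 and 2 below. Bad, another BH3-only gene, was at 29.6 and 13.4 CPM in CD8αβ T cells (1.15, 0.64 to 1.68), and of its 8 listed cell types was higher in 5 and lower in 3. Bbc3, which encodes PUMA, was at -0.64 (-1.23 to -0.07) in mature B cells, and its other intervals included 0.

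Of 190 listed pairs of the death machinery, caspases, their activators and inhibitors, 24 were past the line higher (12.6%) and 11 lower (5.79%), against 10.2% and 8.63% of all pairs, with a median of 0.04. Apaf1, the scaffold of the apoptosome, stood at 61.9 CPM in TG and 37.2 in WT CD8αβ T cells (0.73, 0.42 to 1.05). Over 9 cell types it was higher in 6 and lower in 3, from -0.87 to 0.78, with 2 intervals above 0 and 1 below.

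Of 91 listed pairs of cytokine receptors and their signalling that maintain the survival genes, 17 were past the line higher (18.7%, against 10.2% of all pairs) and 10 lower (10.99%, against 8.63%), with a median of 0.04. Il7r was lower in TG in NK cells (51.3 against 179 CPM; -1.80, -2.12 to -1.49), CD8αα T cells (-1.23, -1.71 to -0.76) and CD8αβ T cells (423 against 707 CPM; -0.74, -0.83 to -0.66), and higher in NKT cells (848 against 543 CPM; 0.64, 0.55 to 0.73). Bcl2 was lower in all of these cell types. Within CD8αβ T cell clusters 4 and 13, where Bcl2 was higher in TG, Il7r stood at 1001 against 1174 and at 1031 against 1181 CPM. The relation of Il7r to Bcl2 was not tested. Il2rb, which encodes CD122, was higher in TG CD4 T cells, 968 against 400 CPM (1.27, 1.13 to 1.42). Over 9 cell types it was higher in 3 and lower in 6, down to -1.47, with 3 intervals above 0 and 5 below. Jak3, the kinase shared by these receptors, had ratios between 0.21 and 1.12 in the 8 cell types in which it was listed, with 5 intervals above 0.

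Genes known to respond to tissue dissociation were counted as well. Of 88 listed pairs, 16 were past the line higher (18.2%, against 10.2% of all pairs) and 8 lower (9.09%, against 8.63%), with a median of -0.10. The heat shock gene Hspa1b had intervals above 0 in 8 of 9 cell types, with a median log2 ratio of 1.31, and the immediate early gene Egr1 had intervals below 0 in 8 of 9, furthest in cells labelled monocytes (2185 against 4770 CPM; -1.13, -1.22 to -1.03). The part of cell handling in the TG over WT ratios of the members was not tested.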

How the data were processed

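Liver CD45+ cells of TG and WT mice were labelled with 49 antibodies and captured on the BD Rhapsody system as 2 libraries, each pooling 2 genotypes. The authors aligned reads to mm10, corrected UMI counts for sequencing errors and deposited these counts for each library together with a filtered count table of 13528 genes. The deposited antibody values are centred log ratios on a natural log scale. The deposited cell table gives a mitochondrial percent, a named cell type and the cluster number, a score set by the authors after joining the datasets in Seurat. The filter on cells and the strand setting of the counting are not given in the sources used here. Genotype came from the cell table, and the groups from the labels.

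Counts were summed per genotype and cell type or cluster, divided by total UMIs (18498477 in TG, 22216379 in WT) and written in CPM, each with its exact Poisson 95% interval. For ratios the intervals are exact conditional binomial ones, with no pseudocount. These intervals cover counting error only, and UMIs of a cell are not independent. With 1 library per genotype no test was possible. Called pairs had at least 30 UMIs over both sums and a ratio of at least 1.5-fold; in contrasts within a library the ratio had to pass in both. Members and lists were chosen with earlier results of these data known. All 9 members were counted in every compared cell type, though not every ratio is printed. Of the other lists every gene was counted. Genes were named from the 2 highest and 2 lowest ratios per list and cell type with at least 100 UMIs, or by the direction they took over the cell types. The latter were chosen after their values were seen. Likeness used the 3 genes of highest r.

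Scrublet (scanpy 1.11.5) marked 0.839% of TG and 3.31% of WT cells as doublets, which were kept in the reported values. Alternatives were equal weight per cell, TMM factors from edgeR 4.0.16 under R 4.3.3, library totals that left out ribosomal and mitochondrial genes, cells thinned to 1000 UMIs, no doublets, no cells with B and T lineage genes, other minimum counts and folds, and others chosen after seeing the data. The ratio calculation was also run on simulated counts, the outcome of which is not given here. Sums and intervals came from scipy 1.17.1, pandas 2.3.3 and numpy 2.4.6 in Python 3.11.15, and alignments from Biopython 1.88. Promoters of all 9 members were matched by symbol in RefSeq's table for GRCm38.p6, and positions and transcripts came from GENCODE. Cells without a genotype name, sorted-cell and receptor sequencing were not analysed here. Some genes of the death machinery list are not reported singly here.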

Additional observations from a re-analysis of the deposited data

Results flagged for a closer look

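A total of 4 members had TG over WT ratios that took opposite directions in a pair of cell types, with intervals that excluded 0 on both sides; the difference itself was not tested, since each genotype was 1 library. Bcl2 was at 0.61 in macrophages and -0.84 in NK cells, a gap of 1.45 on the log2 scale, and at 0.50 and -0.52 with clusters weighted as in WT. Bcl2l11 was at 0.60 in NKT cells and -0.86 in NK cells, a gap of 1.46, the NK ratio was -0.51 with clusters weighted as in WT, and TG cells labelled NK carried Cd3e at 1158 CPM against 97.8 in WT. Bcl2a1b was at 0.93 in macrophages (0.56 with that weighting) and -1.26 in immature B cells, a gap of 2.19, from 40 and 48 UMIs in the former and 11 and 22 in the latter. Bcl2l1 was at 1.35 in cells labelled monocytes and -0.90 in mature B cells, a gap of 2.26, from 38 and 13 UMIs and from 23 and 46 UMIs; the latter ratio was -0.49 without cells with B and T lineage genes and -0.27 with clusters weighted as in WT.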

How the results depend on the processing

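No paired analysis was possible because each genotype was 1 library and no test was made; for the same reason no replicate could be left out. The count of members and cell types past the line in TG over WT, 14 higher and 12 lower, was 7 higher and 9 lower after thinning to 1000 UMIs, 7 and 7 with at least 100 UMIs, and 4 and 3 at 2-fold. Without NK and CD8αα T cells 9 higher and 8 lower pairs were called, without NK cells 13 and 10 were called, without monocytes and macrophages 11 and 11, and with the median of all genes subtracted 13 and 11. Against other cells, 6 higher and 8 lower pairs were called at 2-fold in place of 14 and 20. Against cluster 4, the 7 higher pairs became 2 after thinning, 18 with no minimum count and 1 with at least 100 UMIs, and the 2 lower pairs became 1 at 2-fold. The shares of all gene pairs past the line under these alternatives are not given here. These counts therefore do not tell whether the members changed more than other genes. Of 610 single ratios recomputed, 576 lay within the 95% interval of the reported ratio, which for intervals that include 0 allows a change of sign, 30 lay outside it, and 4 changed sign from an interval that excluded 0. Those 4 were Bcl2 in CD8αβ T cells (-0.18), which was 0.12 without cluster 7 and 0.34 with clusters weighted as in WT, Bcl2 in CD4 T cells (-0.49), which was 0.11 with clusters weighted as in WT, and Bax in CD4 T cells (0.38), which was -0.10 after thinning; the cause of the last was not tested. Bak1 was higher in TG in all 9 cell types under each setting that covered them, and Bcl2 was lower in 7 of 9 after thinning. Depth limits Bcl2a1b, Bcl2a1d, Bcl2l1 and Bid, which had 976 to 1455 UMIs each over both genotypes.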

Other observations

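The highest Bcl2a1 levels of any cluster lay outside the compared cell types, in cluster 28 of the cells named other, with 6 TG and 15 WT cells. Bcl2a1b stood there at 706 CPM in TG and 401 in WT, from 38 and 34 UMIs, and Bcl2a1d at 502 and 342. Mcl1 was at 985 and 932 CPM. Genes leading this cluster against all other cells were Apol7c, Fscn1, Clu, Il12b and Ccl22. With so few cells the values describe these cells only.

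The Bcl2a1 copies differed in their balance between T cells and cells labelled macrophages. Bcl2a1a had 0.675 UMIs (0.398 to 1.13) for each Bcl2a1b UMI in macrophages of TG and 0.688 (0.428 to 1.09) in those of WT, and at most 0.119 in NKT, NK and T cell classes. Cells labelled monocytes had 0.308 (0.0731 to 0.996) in TG and 0.190 (0.0475 to 0.565) in WT, from 4 Bcl2a1a UMIs each. Within the cells labelled macrophages, cluster 22, led by Xcr1, had 2 and 1 Bcl2a1b UMIs in TG and WT beside 6 and 28 of Bcl2a1d. Reads shared by the copies could enter any of these counts.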
